A study of Sus scrofa with 24 samples.

Results

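The genes described here encode the enzymes that cut the extracellular matrix and proteins at the cell surface, together with their inhibitors. They are the matrix metallopeptidases (MMPs), the ADAMs, the ADAMTS peptidases, the ADAMTS-like proteins (ADAMTSL) and the tissue inhibitors of metalloproteinases (TIMPs). Within these families members were taken by gene symbol alone, as genes with a family name followed by a number. The families themselves were chosen with earlier results of these data known. The array's annotation gave 49 such genes among the 12365 genes to which it assigns 1 symbol, namely 13 MMPs, 16 ADAMs, 14 ADAMTS, 3 ADAMTSL and 3 TIMPs. ADAM7 and ADAMTS20 had a second probe set, and the probe set with the higher mean stood for each. Probe sets with several symbols were left out.

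RNA came from the utero-tubal junction (UTJ) of weaned Swedish Landrace sows, the narrow part joining the uterine horn to the oviduct, which stores spermatozoa, and was hybridised to Affymetrix Porcine Gene 1.0 ST arrays. Of 24 arrays, 8 are labelled control (sows infused with 50 ml of BTS, Beltsville Thawing Solution, a semen extender), 8 mated with boars and 8 infused with 50 ml of sperm-free seminal plasma (SP), with tissue taken by surgery within 24 h. The study's design text also calls its control females neither mated nor inseminated, so differences are given against the control arrays as labelled. Each group had 4 sows, sampled on the left and the right side. The sources used here do not tie arrays to sows, so tests took arrays as units although some share an animal, and their p-values are therefore too small. Values are log2 intensities, and levels of different genes are not set against each other because probe sets differ in how brightly they bind. Array medians ran from 5.75 to 5.99, and the SD over probe sets from 1.91 in control replicate 1 to 2.14. Markers of epithelium (5 of 7 listed genes measured), smooth muscle (3 of 5) and fibroblasts (4 of 5) had mean log2 values by array of 7.21 to 9.79, 10.94 to 12.21 and 11.45 to 12.40. Among all marker genes, those at an unadjusted p under 0.05 were PECAM1 (0.41) and TEK (0.42) of endothelium and EPCAM (-0.41) of epithelium in mated against control arrays, and S100A9 (-0.33) and TREM1 (-0.46) of neutrophils in SP-infused against control arrays, none after adjustment (limma). In mated against control arrays the other measured epithelial markers differed by 1.57 (OVGP1, interval -0.55 to 3.70), -0.34 (FOXJ1), -0.26 (KRT8) and -0.27 (KRT18). The other endothelial marker, VWF, differed by 0.04. In SP-infused against control arrays the other neutrophil markers differed by 0.03 (S100A8), -0.37 (CXCR2) and -0.05 (MPO). The part of these cell types in the results below was not tested. Sperm markers (4 of 7 measured) averaged 4.26, 3.98 and 4.18 in control, mated and SP-infused arrays. Of these, AKAP4 averaged 6.19, 5.51 and 6.21, while TNP1, ODF1 and SMCP had means over 24 arrays of 2.87, 3.62 and 4.09. Whether these values reflect spermatozoa was not tested.

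MMPs are zinc enzymes made as inactive proenzymes, and between them they cut collagens, elastin, proteoglycans and many signalling proteins. ADAMs sit in the cell membrane and release growth factors, cytokines and receptors, while ADAMTS enzymes are secreted and trim proteoglycans and procollagens. TIMPs bind the active site of these enzymes, TIMP3 with the broadest reach. In the female tract these proteins are known for tissue remodelling over the oestrous cycle, at implantation and after birth.

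None of the 49 genes passed an adjusted p under 0.05 (limma, Benjamini-Hochberg over 27558 probe sets) in any of the 3 comparisons, and nor did any other gene, for a background of 0%. At an unadjusted p under 0.05, 1 member was lower in arrays labelled mated than in control, ADAM12, and 0 were higher, while 10.2% of all genes reached that level, 7.31% lower and 2.92% higher. That split over all genes rests on the scaling, with 3.45% lower and 5.94% higher when array medians were made equal and 4.42% and 4.59% with cyclic loess. Between SP-infused and control arrays 0 members did, against 4.54% of all genes, 1.51% higher and 3.02% lower. Between mated and SP-infused arrays 0 members did, against 3.31% of all genes, 1.54% higher and 1.77% lower. The lowest adjusted p among members was 0.357, 0.891 and 0.998 in these comparisons. In 0 of 49 members did the arrays of any pair of groups separate without overlap, against 0.0647%, 0.00809% and 0.00809% of all genes. Both comparisons with control share the same 8 control arrays.

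**Figure D1:**
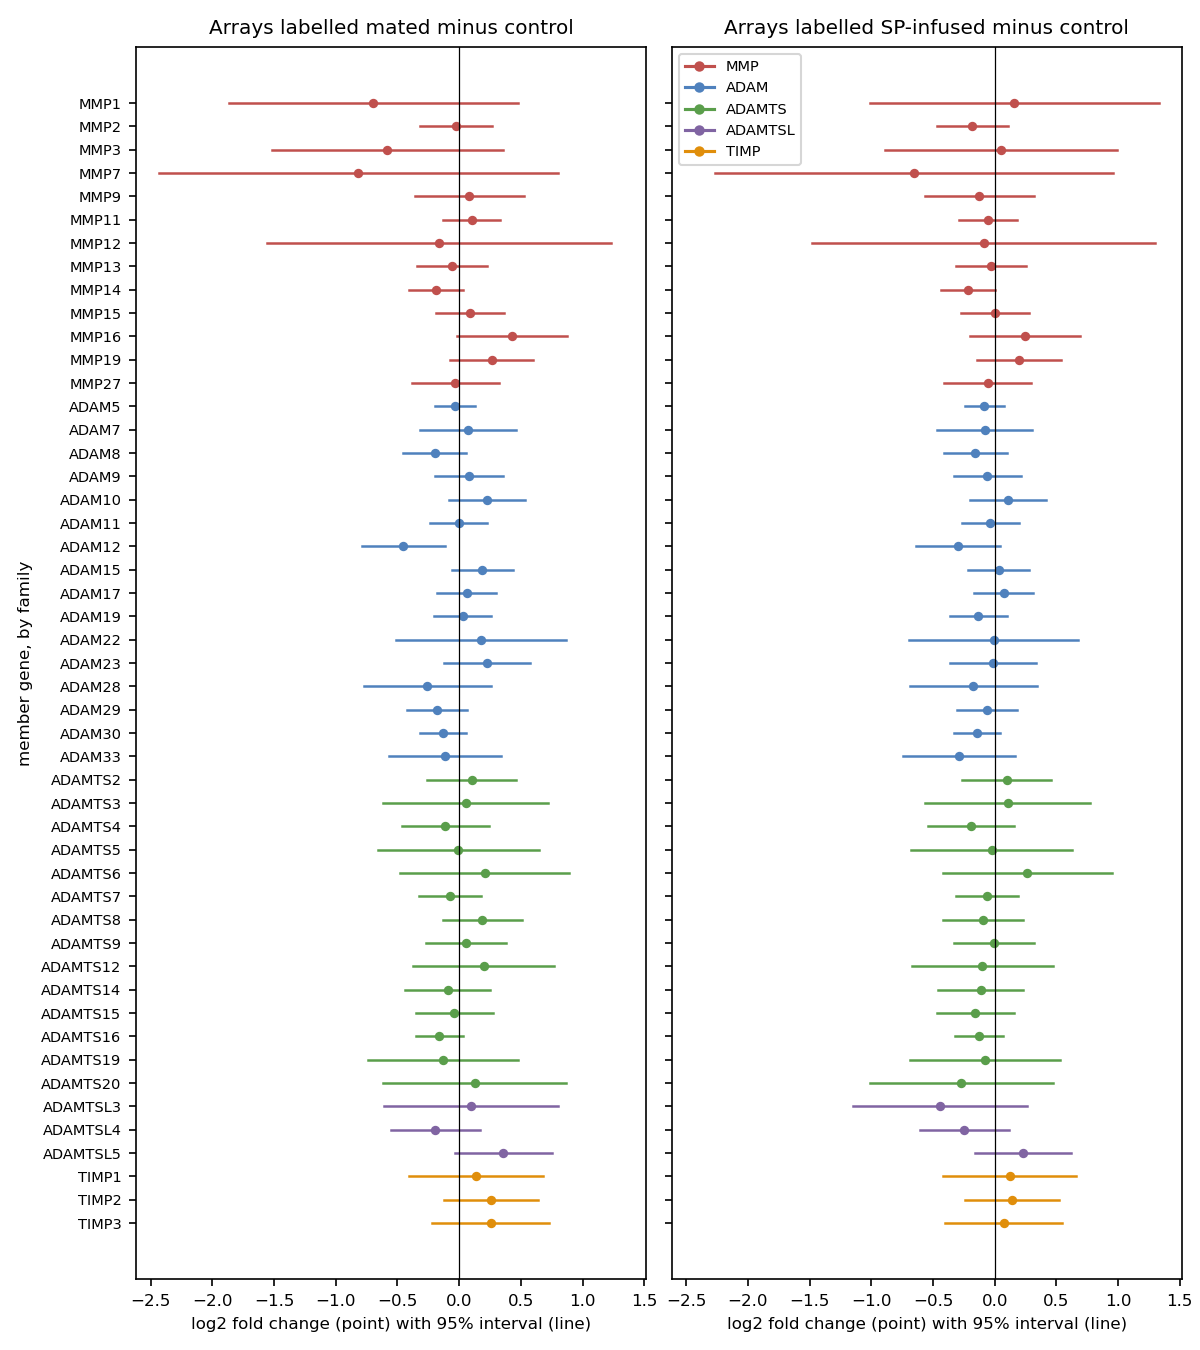
Log2 fold change of each of the 49 members (point) with its 95% interval from limma (line), for arrays labelled mated minus control (left) and SP-infused minus control (right), coloured by family. In the left panel the interval of ADAM12 lies below 0, and the widest intervals belong to MMP7, MMP12, MMP1 and MMP3.

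Among the ADAM sheddases, ADAM12 cleaves insulin-like growth factor binding proteins and heparin-binding EGF-like growth factor in human cells. Its log2 values in control replicates 1 to 8 were 5.51, 6.05, 5.80, 6.03, 5.80, 6.46, 5.69 and 6.66. In arrays labelled mated they were 6.01, 6.05, 5.27, 5.54, 5.07, 5.28, 5.58 and 5.59, and in SP-infused arrays 5.83, 5.22, 5.51, 6.00, 5.47, 6.01, 5.77 and 5.82. Mated replicates 1 and 2 lay among the higher control values, and the other mated arrays lay in or below the lower part of the control range, so the groups overlapped. The means were 6.00 ± 0.39 in control, 5.55 ± 0.35 in mated and 5.70 ± 0.28 in SP-infused arrays (SD, n = 8 arrays each). The mated difference was -0.45 (SE 0.16, 95% interval -0.79 to -0.11, unadjusted p = 0.0111, adjusted p = 0.357 by limma), and the SP-infused difference was -0.30 (SE 0.16, unadjusted p = 0.0828, adjusted p = 0.891 by limma). Mated and SP-infused arrays differed by -0.15 (interval -0.49 to 0.18). Control replicates 6 and 8 held the highest control values, and whether they came from the same sow is not known. Without control replicate 8 alone the mated difference was -0.36. Leaving out 1 array does not remove a sow, and a fit without both of these arrays was not run.

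The other sheddases differed less from control. ADAM17 releases tumour necrosis factor and ligands of the EGF receptor, and it averaged 7.95 ± 0.33, 8.01 ± 0.12 and 8.02 ± 0.20 in control, mated and SP-infused arrays (n = 8 each), with a mated difference of 0.06 and an interval of -0.18 to 0.30. ADAM10, which cuts Notch receptors, averaged 3.99 ± 0.40, 4.22 ± 0.27 and 4.10 ± 0.21, with a mated difference of 0.23 (interval -0.08 to 0.53). For both genes the interval, with arrays as units, holds 0 and stays within 0.6 of it. Over the 9 sheddases the median log2 fold change was 0.03 for mated against control and -0.13 for SP-infused against control, beside -0.04 and -0.03 over all genes. ADAM15, a membrane ADAM with an integrin-binding motif in human, differed by 0.19 in mated arrays (interval -0.06 to 0.44), and ADAM8, found on leukocytes, by -0.20 (interval -0.46 to 0.06). ADAM9 differed by 0.08, ADAM19 by 0.03, ADAM28 by -0.26 and ADAM33 by -0.12. ADAM22 and ADAM23, which lack protease activity and bind the neuronal LGI proteins, differed by 0.18 (interval -0.51 to 0.87) and 0.22 (interval -0.13 to 0.57), and ADAM11, of the same group, averaged 5.26, 5.25 and 5.22 in control, mated and SP-infused arrays.

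Some ADAMs are best known from testis and epididymis. Of these, ADAM5 averaged 1.99, 1.96 and 1.91, ADAM29 2.69, 2.52 and 2.63, ADAM30 3.03, 2.90 and 2.88 and ADAM7 4.01, 4.08 and 3.93 in control, mated and SP-infused arrays. In the comparison of mated with control, 1 of these 4 genes was higher and 3 lower, with all 4 intervals within 0.5 of 0. Of the members, 11 had a mean log2 value below 5, namely these 4, ADAM8, ADAM10, ADAM23, ADAMTS16, MMP3, MMP13 and MMP27. How far such values lie above background was not tested, so narrow intervals there do not show steady expression.

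The widest spread among members was in MMP7, MMP12, MMP1 and MMP3. In the pig assembly Sscrofa11.1 these genes lie near each other on the same chromosome, in the order MMP7, MMP1, MMP3 and MMP12, with MMP27 between MMP7 and MMP1 and MMP13 after MMP12. MMP7 (matrilysin) is made by glandular epithelium and activates defensins in mouse intestine, and its within-group SD was 1.70 on the log2 scale. MMP12 (macrophage elastase) had 1.46, MMP1 (interstitial collagenase) 1.23 and MMP3 (stromelysin, which also activates other MMPs) 0.98. These stand at percentiles 99.89, 99.77, 99.62 and 99.00 of within-group SD over all genes. Of the members, 6.12% had an SD above 1 and 28.6% above 0.5, against 0.922% and 9.84% of all genes. The median SD was 0.35 in members and 0.25 over all genes. MMP27 and MMP13, their neighbours, had means of 3.41, 3.38 and 3.35 and of 2.95, 2.89 and 2.91 in control, mated and SP-infused arrays.

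**Figure D2:**
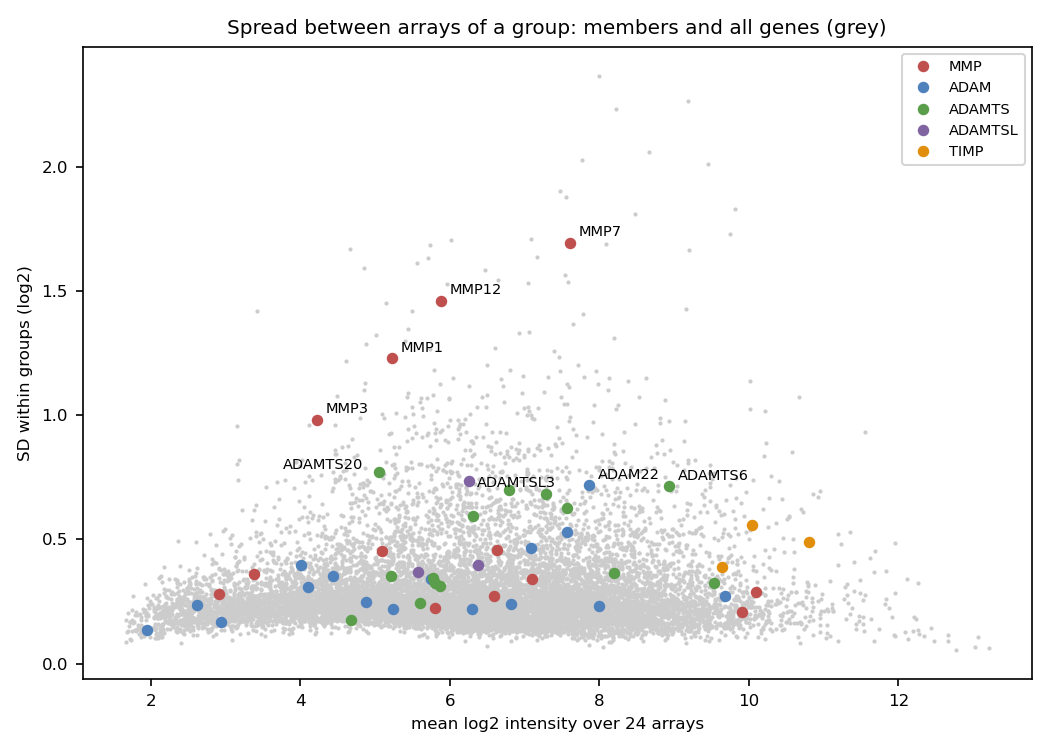
Within-group SD (log2, vertical) against the mean log2 intensity over 24 arrays (horizontal) for each of 12365 genes (grey) and the 49 members (coloured by family). MMP7, MMP12, MMP1 and MMP3 stand far above most genes of like intensity.

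For MMP3 the control arrays held 3.11, 5.21, 3.25, 5.15, 5.46, 5.15, 2.93 and 4.94 in replicates 1 to 8, the mated arrays 3.88, 3.93, 3.04, 3.44, 3.23, 3.99, 5.78 and 3.25, and the SP-infused arrays 3.48, 6.27, 3.94, 4.48, 3.89, 3.87, 5.62 and 4.06. Control arrays fell into a low and a high set, 7 of 8 mated arrays lay between those sets or in the low one, and mated replicate 7 stood above the rest of its group. The mated difference was -0.58 (SE 0.46, interval -1.52 to 0.36, adjusted p = 0.634 by limma), and without mated replicate 7 it was -0.86. The SP-infused difference was 0.05 (interval -0.89 to 0.99). Mated against SP-infused it was -0.63 (interval -1.57 to 0.31), and the unadjusted p fell to 0.0437 only when mated replicate 7 was left out.

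For MMP12 the control arrays held 3.58, 6.41, 3.55, 6.51, 7.27, 7.79, 4.80 and 7.82, the mated arrays 6.39, 5.11, 5.14, 6.21, 3.25, 6.68, 8.06 and 5.59, and the SP-infused arrays 3.98, 7.40, 6.28, 7.28, 5.93, 4.85, 5.60 and 5.69. All groups spanned more than 3 log2 units and overlapped widely. The differences were -0.16 for mated against control (SE 0.68, interval -1.55 to 1.23, adjusted p = 0.943 by limma) and -0.09 for SP-infused against control (interval -1.48 to 1.30). The sign of the mated difference turned when any of 4 arrays was left out, to 0.20 without mated replicate 5, so no direction is drawn for MMP12.

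Control arrays spanned 3.65 to 7.10 for MMP1, mated arrays 3.76 to 7.29 and SP-infused arrays 3.96 to 7.25, with medians of 5.71, 4.53 and 5.54. Its mated difference was -0.70 (interval -1.87 to 0.48). MMP7 ranged from 6.57 to 9.93, from 5.00 to 10.53 and from 4.86 to 10.09, with medians of 8.07, 6.71 and 7.55 and differences from control of -0.82 (interval -2.43 to 0.80) and -0.65 (interval -2.27 to 0.96). For these genes the intervals do not exclude differences of more than 1 log2 unit in the lower direction.

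In control arrays the high and low values of these MMPs fell in the same arrays, a pattern noticed after the values were seen and given without a test. Replicates 1, 3 and 7 held 6.57 to 7.48 for MMP7, 3.65 to 4.03 for MMP1, 2.93 to 3.25 for MMP3 and 3.55 to 4.80 for MMP12. The other 5 control arrays held 8.04 to 9.93, 5.58 to 7.10, 4.94 to 5.46 and 6.41 to 7.82, with no overlap in any of the 4 genes. In mated arrays MMP7 departed from the others, since replicate 5 was its highest array at 10.53 and the lowest for MMP12 at 3.25 and MMP1 at 3.76. When the 4 highest arrays of each gene were compared, pairs of these genes shared 3 or 4 of them in the control group. With 4 of 8 arrays taken for each gene, unrelated genes would share 2 on average. In the mated group MMP3 shared 3 with MMP1 and 3 with MMP12, MMP1 shared 2 with MMP12, and MMP7 shared 2 with MMP1, 2 with MMP3 and 1 with MMP12. In the SP-infused group MMP7 shared 3 with MMP1, 3 with MMP3 and 1 with MMP12, and each other pair shared 2. Mated replicate 7 was the highest for MMP1, MMP3, MMP12 and also MMP9, a gelatinase of leukocytes, at 6.59. The macrophage marker mean (5 of 7 listed genes measured) was 5.41 in that array, within the mated range of 5.29 to 5.94, and the neutrophil mean (5 of 7) was 4.22 within 3.87 to 4.52. Single macrophage markers differed there, with MSR1 at 6.02 and AIF1 at 5.08 beside mated means of 5.81 and 5.50. The part of leukocytes in these MMP values was not tested.

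**Figure D3:**
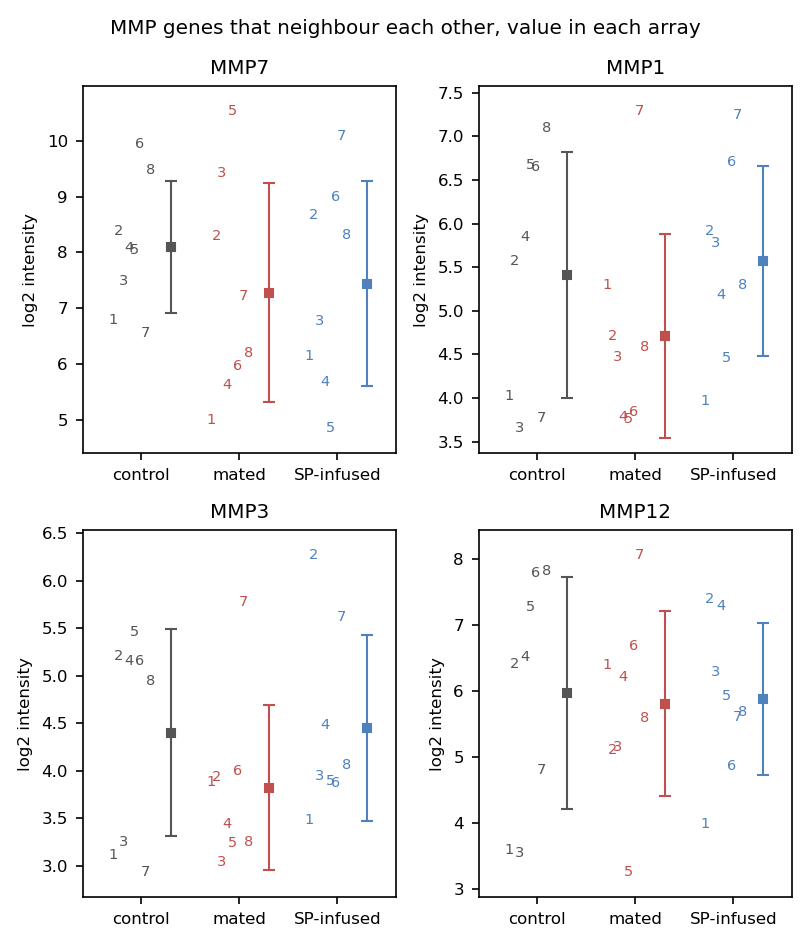
Log2 intensity of MMP7, MMP1, MMP3 and MMP12 in each array, where a printed number is the array's replicate number and squares with bars are the mean and SD of 8 arrays. Control replicates 1, 3 and 7 sit below the other 5 control arrays in all 4 panels.

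The remaining MMPs varied less. MMP14, the membrane-type enzyme that activates pro-MMP2 with TIMP2, averaged 10.04 ± 0.25 in control, 9.86 ± 0.12 in mated and 9.82 ± 0.23 in SP-infused arrays (n = 8 each), with differences from control of -0.19 (interval -0.41 to 0.03, unadjusted p = 0.0921 by limma) and -0.22 (interval -0.44 to 0.002, unadjusted p = 0.0524 by limma). MMP2, the gelatinase it activates, averaged 10.16, 10.14 and 9.98, with a mated difference of -0.03 (interval -0.32 to 0.26). MMP16, another membrane-type enzyme, ranged from 5.16 to 6.83 in control and from 6.03 to 7.25 in mated arrays, with a difference of 0.42 (interval -0.02 to 0.87, unadjusted p = 0.061 by limma). MMP19, an enzyme of basement membranes, differed by 0.26 (interval -0.08 to 0.60), MMP15, also membrane-type, by 0.09 and MMP11, a stromelysin, by 0.10 (interval -0.13 to 0.33).

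ADAMTS3 removes the N-propeptide of fibrillar procollagens, as ADAMTS2 and ADAMTS14 do, and processes the lymphatic growth factor VEGFC. Its control arrays held 5.83, 7.26, 5.31, 7.21, 6.59, 7.47, 7.21 and 7.02, its mated arrays 6.65, 7.14, 5.46, 8.05, 6.34, 7.38, 6.91 and 6.39, and its SP-infused arrays 7.26, 7.50, 6.48, 7.28, 6.94, 6.06, 6.37 and 6.84. Control replicates 1 and 3 and mated replicate 3 were low, and the groups overlapped. The differences were 0.05 for mated (SE 0.33, interval -0.62 to 0.72, adjusted p = 0.962 by limma) and 0.11 for SP-infused arrays (interval -0.56 to 0.78). The study names ADAMTS3, MMP3 and MMP12 as lower after mating, in groups it gives as n = 4. It took them from its largest fold changes at an unadjusted p under 0.05 by limma, a level it calls suggestive. None of these genes reached that level here. For ADAMTS3 the difference here has the opposite sign. The sign here turned when any of 4 arrays was left out, to -0.15 without control replicate 3, so no direction is drawn. ADAMTS2 differed by 0.10 in each comparison with control and ADAMTS14 by -0.09 and -0.11.

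Low values in those 3 arrays were shared by some other members and not by others. In ADAMTS2, ADAMTS3, ADAMTS5, ADAMTS6, ADAMTS9, ADAMTS19 and MMP16, control replicates 1 and 3 were the lowest pair of control arrays and mated replicate 3 was the lowest mated array, in 7 of 7 genes. These genes were picked because of that pattern, so it is a description. Control replicate 1 was at the same time the highest control array for TIMP1 (10.79), ADAM33 (7.84), ADAMTSL3 (7.88) and ADAMTS15 (6.48), and MMP2 was 10.16 there, the control mean. For ADAMTS6, which is known for cutting microfibril proteins, the control values were 7.01 and 7.33 in replicates 1 and 3 and 9.05 to 9.57 in the others, the mated value was 7.41 in replicate 3, and the SP-infused arrays held 8.88 to 9.37. Of the 4 measured fibroblast markers, the collagens COL1A1 and COL3A1 were low in the same arrays, at 10.40 and 10.70 in control replicate 1, 11.39 and 10.72 in control replicate 3 and 11.16 and 10.70 in mated replicate 3, beside control means of 11.84 and 11.62. The other fibroblast markers were not: DCN was 12.33, 12.13 and 12.23 in these arrays and LUM 12.37, 12.47 and 12.46, beside control means of 12.23 and 12.47. In whole tissue, fewer cells of a type and less RNA per cell cannot be told apart, and the part of fibroblast content in these values was not tested.

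**Figure D4:**
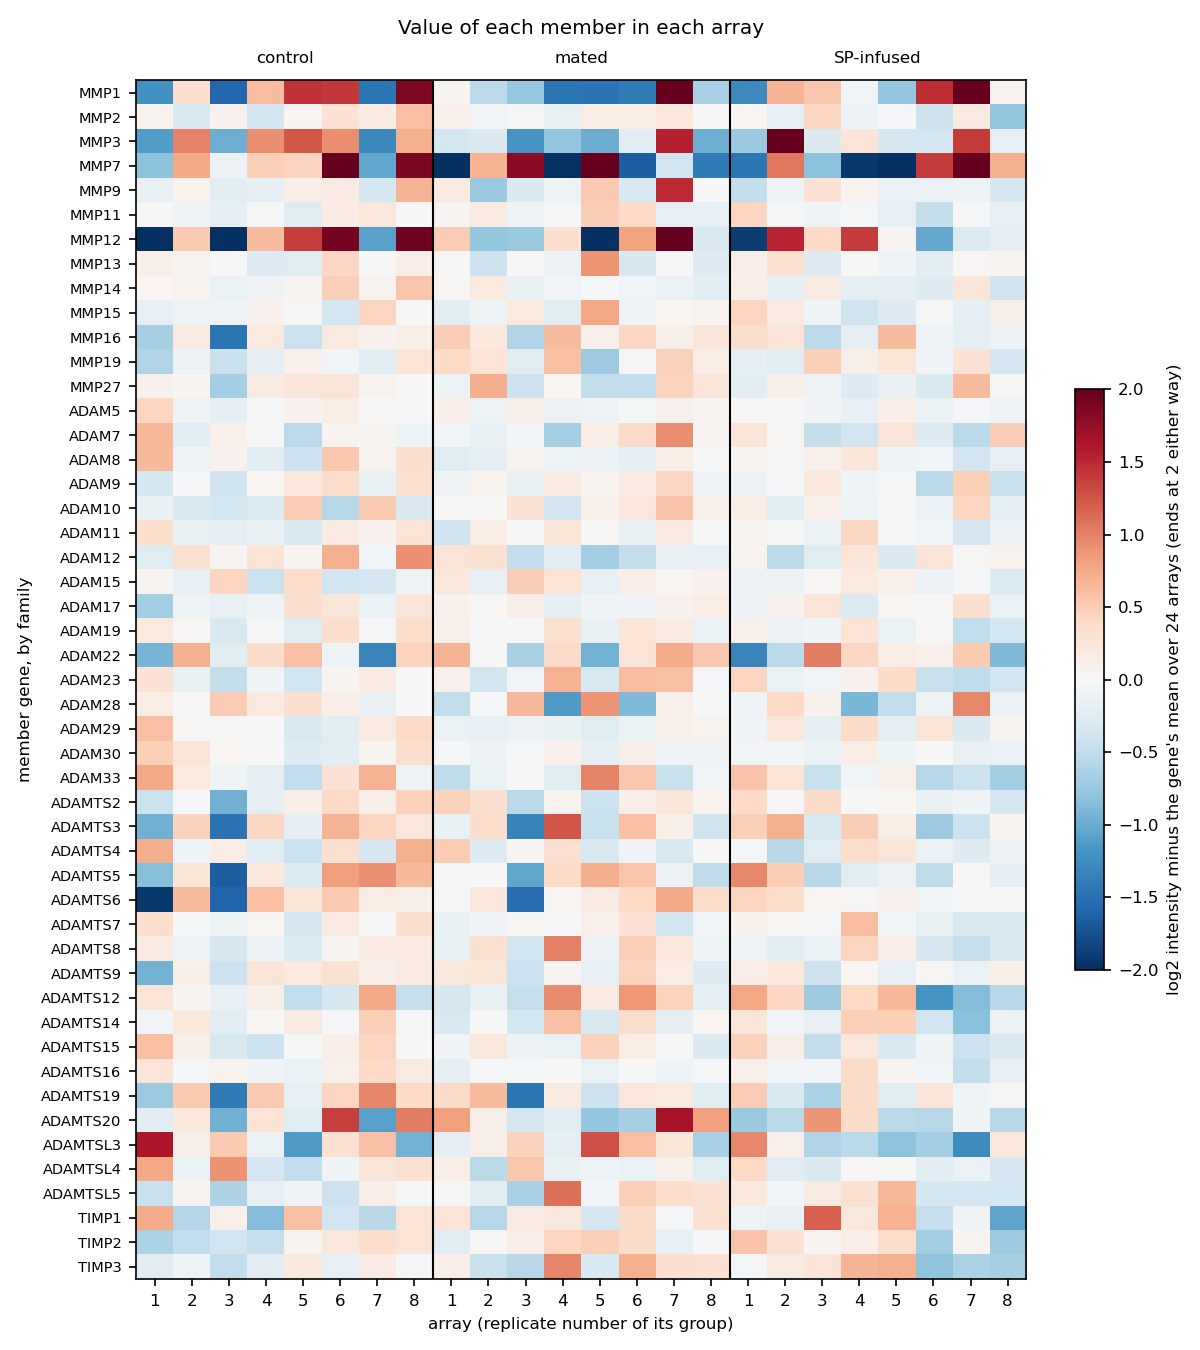
Log2 intensity of the 49 members (rows, by family) in 24 arrays (columns, by group and replicate number) as the difference from the gene's mean over all arrays, with the colour scale ending at 2 either way. Control replicates 1 and 3 and mated replicate 3 are blue in several ADAMTS rows, and the strongest colours lie in MMP1, MMP3, MMP7 and MMP12.

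Of the 6 measured ADAMTS enzymes that cut proteoglycans such as aggrecan and versican (ADAMTS4, ADAMTS5, ADAMTS8, ADAMTS9, ADAMTS15 and ADAMTS20), 3 had a higher and 3 a lower mean in mated than in control arrays, and 6 had a lower mean in SP-infused arrays, with 0 at an unadjusted p under 0.05 in either. Their median log2 fold changes were 0.02 and -0.13, beside -0.04 and -0.03 over all genes, of which 41.5% and 42.3% were higher than in control. The lowest p of this list was for ADAMTS8 in mated against SP-infused arrays, with 5.96 ± 0.44 and 5.68 ± 0.28 (n = 8 each) and a difference of 0.28 (interval -0.04 to 0.61, unadjusted p = 0.0827 by limma). ADAMTS20 varied most of them, with control arrays at 3.96 to 6.42, mated arrays at 4.27 to 6.69 and SP-infused arrays at 4.30 to 5.93. ADAMTS16 was among the members of least spread and differed by -0.16 in mated arrays (interval -0.35 to 0.03). ADAMTS7 and ADAMTS12, which cut cartilage oligomeric matrix protein, differed by -0.08 and 0.20, and ADAMTS19 by -0.13.

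ADAMTSL proteins resemble ADAMTS enzymes without the catalytic domain and bind microfibrils. ADAMTSL5 ranged from 5.76 to 6.50 in control and from 5.73 to 7.47 in mated arrays, with a difference of 0.36 (interval -0.03 to 0.75, unadjusted p = 0.0705 by limma). ADAMTSL3 was lowest in SP-infused arrays at 5.93 ± 0.71, against 6.37 ± 0.88 in control and 6.46 ± 0.59 in mated arrays (n = 8 each), with a difference of -0.44 from control (interval -1.15 to 0.26). ADAMTSL4 differed by -0.19 in mated and by -0.25 in SP-infused arrays.

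All 3 measured inhibitors had higher means in both treated groups than in control, with 0 of 3 at an unadjusted p under 0.05. In SP-infused arrays at least 1 of them turned below control when SP-infused replicate 3, 4 or 5 was left out. TIMP1 averaged 9.96 ± 0.60, 10.09 ± 0.34 and 10.08 ± 0.69, and TIMP2 9.51 ± 0.40, 9.76 ± 0.27 and 9.65 ± 0.47 in control, mated and SP-infused arrays (n = 8 each). TIMP2 differed from control by 0.26 in mated (interval -0.12 to 0.64) and by 0.14 in SP-infused arrays (interval -0.24 to 0.52), and TIMP1 by 0.14 (interval -0.40 to 0.68) and 0.12. TIMP3 differed by 0.25 (interval -0.22 to 0.73) and 0.07. Its control arrays lay between 10.30 and 11.02, while mated arrays spanned 10.25 to 11.78 and SP-infused arrays 10.00 to 11.52, so both treated groups reached past the control range on either side. The highest TIMP3 values, 11.78 and 11.52 in mated replicates 4 and 6, stood beside smooth muscle marker means of 12.13 and 12.21, and the low values of 10.00, 10.17 and 10.15 in SP-infused replicates 6, 7 and 8 beside 10.94, 11.03 and 11.39. SP-infused replicates 4 and 5 paired likewise, with TIMP3 at 11.48 and 11.52 beside 11.95 and 12.11. Not all arrays did, since control replicate 1 held 10.57 for TIMP3 beside 12.02 and SP-infused replicate 1 held 10.79 beside 12.04. The part of smooth muscle content in TIMP3 was not tested.

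**Figure D5:**
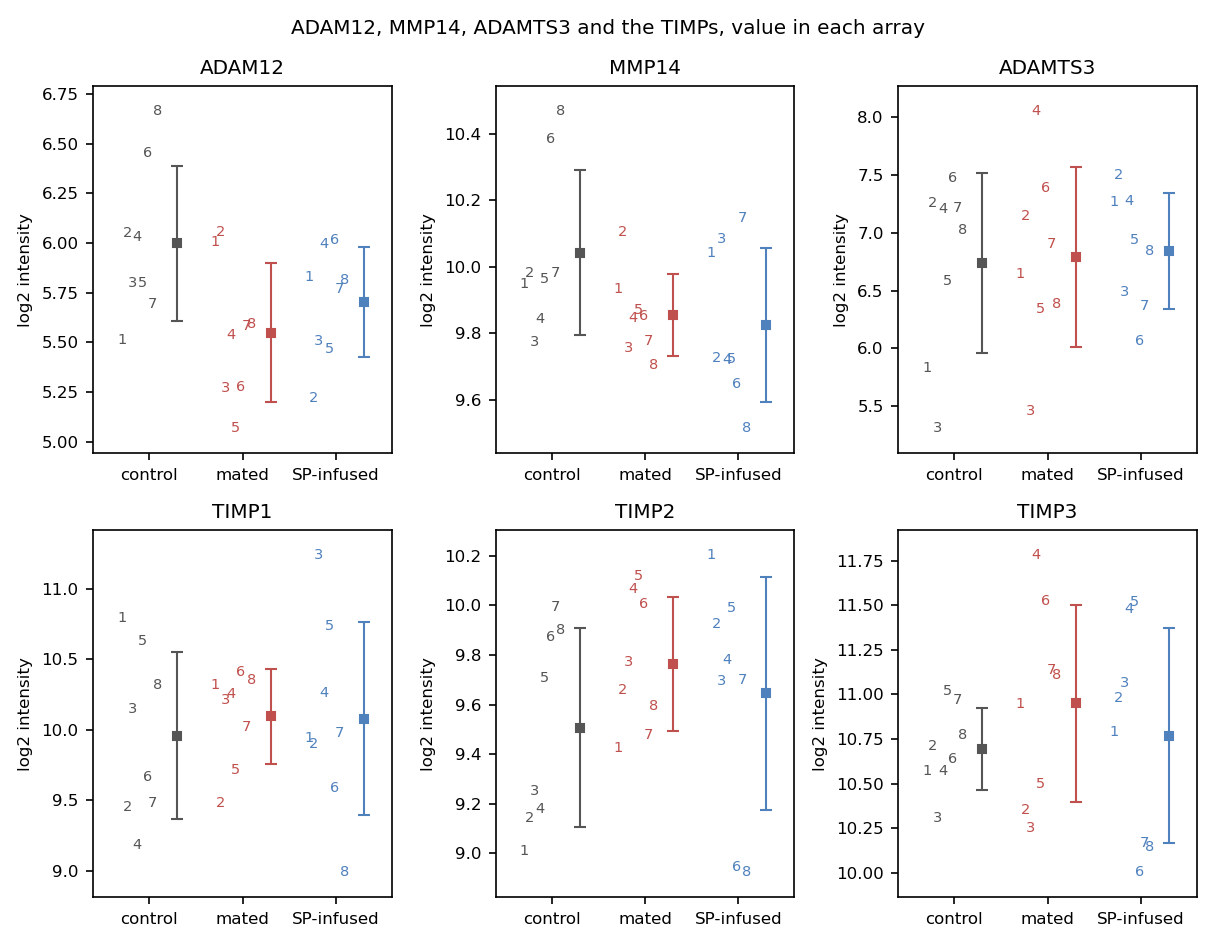
Log2 intensity of ADAM12, MMP14, ADAMTS3, TIMP1, TIMP2 and TIMP3 in each array, with replicate numbers as points and squares with bars for the mean and SD of 8 arrays. The groups overlap in all 6 panels, and mated arrays of ADAM12 lie lowest on average at 5.55.

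Over the 49 members 25 were higher and 24 lower in mated than in control arrays, with a median log2 fold change of 0.03 beside -0.04 over all genes. With array medians made equal the split was 32 higher and 17 lower, with medians of 0.09 and 0.02. In SP-infused arrays 15 were higher and 34 lower than in control, with a median of -0.06 beside -0.03, and with equal array medians 20 and 29. As deposited, 51% of members and 41.5% of all genes were higher in mated than in control arrays. For SP-infused arrays the shares were 30.6% and 42.3%. The SP-infused group had the lowest mean of the 3 groups in 24 members and the highest in 5, where over all genes it was lowest in 30.3% and highest in 26.3%. The 95% interval of the difference stayed within 1 log2 unit of 0 in 45, 44 and 43 of 49 members in the 3 comparisons, and within 0.5 in 23, 25 and 26. These intervals took arrays as units and are too narrow, since some arrays share a sow.

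Genes that act with these enzymes were read from a list of activators, other inhibitors, related peptidases, substrates and inducers, of which 46 of 59 were measured. In mated arrays 2 of them were higher and 4 lower than in control at an unadjusted p under 0.05, and in SP-infused arrays 2 were higher and 3 lower, where the shares over all genes were 2.92% and 7.31% and then 1.51% and 3.02%, with 0 in mated against SP-infused and 0 after adjustment in any comparison (limma). TLL1, a tolloid-like enzyme that trims procollagen C-propeptides, differed by 0.31 and 0.23 from control, and TLL2, its relative, by -0.25 and -0.21. RHBDF2, the iRhom protein that escorts ADAM17 to the cell surface, differed by -0.26 in mated arrays. HBEGF, a growth factor shed by ADAM17 and ADAM12, averaged 6.21 in control, 5.74 in mated and 5.87 in SP-infused arrays, with a mated difference of -0.47, and control replicates 6 and 8 were its highest arrays at 6.97 and 7.35. Those same control arrays held the highest ADAM12 values. PLG, the precursor of plasmin, differed by -0.26 in SP-infused arrays, and PLAU, which activates plasminogen, differed by -0.84 and -1.03 in mated and SP-infused arrays. Its control arrays spread from 6.09 to 9.14 (SD 1.19, n = 8, against 0.28 in SP-infused arrays), with 9.14 and 8.89 in replicates 1 and 3, and without these and mated replicate 3 the differences were -0.57 and -0.57, with neither at an unadjusted p under 0.05. The same held without these arrays for RHBDF2 and TLL2 in mated arrays and for PLG and TNC in SP-infused arrays, at -0.19, -0.24, -0.20 and 0.60. The substrate TNC differed by 1.24 and 0.81, and FN1 differed by -0.65 in SP-infused arrays. Of these named partner genes, TLL1, TLL2 and PLG had mean log2 values over all arrays below 5, at 4.91, 3.96 and 4.45. How far these 3 means lie above background was not tested, so their differences do not show changes in expressed genes.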

How the data were processed

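Total RNA of the UTJ was measured on 24 arrays, grouped by GEO's labels into control, mated and SP-infused (8 each). The authors made the deposited log2 intensities with RMA and compared groups with limma; RMA adjusts background, normalizes between arrays and summarises probes, which limits differences that move all genes at once. The deposited log2 values were used as they are. Versions of these packages and a genome build for the array are not given in the sources used here. Of 27558 probe sets, 13327 carried 1 symbol in the array annotation, 357 carried several and 13874 had no symbol. Gene order was read from the Sscrofa11.1 gene table, where 45 of 46 members with a gene number were found.

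A mean per group was fitted over 24 arrays with limma 3.58.1 in R 4.3.3, with empirical Bayes moderation and Benjamini-Hochberg adjustment over all probe sets in each of 3 comparisons. The steps were tested on simulated data. The number of arrays limits the precision. The members and gene lists were chosen with earlier results of these data known. Named genes are MMP3, MMP12, ADAMTS3, ADAM12, the TIMPs, members at an unadjusted p under 0.05, in each comparison the 5 of lowest p on either side, the 2 brightest and the 2 most variable, and listed partner genes at an unadjusted p under 0.05 and PLAU. Other members are named to fill their family, after their values were seen. Alternatives were pairwise fits, equal array medians, cyclic loess, a filter at a mean of 5, trend and robust priors, array weights, a block for the replicate number, the mean of a gene's probe sets and leaving out each array. Leaving out 3 arrays together was added after seeing the data.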

Additional observations from a re-analysis of the deposited data

Results flagged for a closer look

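An array far from the other 7 of its group (Dixon's criterion) was found in 4 of 81 groups of arrays over 27 named members, or 4.94%, where chance gives about 1 in 20. MMP3 in mated replicate 7 was 5.78, with the next value at 3.99. MMP1 in the same array was 7.29, with the next at 5.29. MMP16 in mated replicate 3 was 6.03, with the next lowest at 6.72, and ADAMTS6 in that array was 7.41, with the next lowest at 8.92.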

How the results depend on the processing

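No member passed an adjusted p under 0.05 in any of the 3 comparisons under any alternative run. ADAM12 was lower in mated than in control arrays at an unadjusted p under 0.05 in all of them (limma, adjusted p 0.229 to 0.535). It differed by -0.52 to -0.36 when each array was left out, a step that removes no sow. Members higher in mated arrays at an unadjusted p under 0.05 numbered 2 with equal array medians (ADAMTSL5, MMP16; 5.94% of all genes) and 1 with cyclic loess (ADAM23; 4.59%), in place of 0 (2.92%). Deviations from the group mean correlated above 0.1 in 9 of 24 pairs of same-numbered arrays (range -0.40 to 0.50). Differently numbered arrays were not compared, so whether replicate numbers pair the arrays cannot be told. With the replicate block the members higher in mated arrays numbered 1 (MMP16, 3.03% of all genes), and no other count changed. Members lower in SP-infused arrays numbered 1 with cyclic loess (MMP14; 1.94% of all genes) and 2 with array weights (ADAM12, MMP14; 2.90%), in place of 0 (3.02%). With array weights ADAMTS3 turned to -0.13 in mated and -0.051 in SP-infused arrays against control, and MMP3 to -0.12 in SP-infused arrays.

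Control replicates 1 and 3 and mated replicate 3 were left out together after seeing the data. They were picked because 7 members were lowest there. The control ones also lay below the control mean for MMP3, MMP12, ADAM12 and MMP14. Without them the differences of these members and the counts below are shifted by that choice. Members higher in mated than in control arrays then numbered 1 (ADAM15; 2.82% of all genes), lower in SP-infused arrays 4 (ADAM12, ADAMTS19, ADAMTS6, MMP14; 2% of all genes) and higher in mated than in SP-infused arrays 1 (ADAMTS8; 2.16%). ADAMTS3 turned to -0.15 and -0.28 against control and to 0.14 in mated against SP-infused arrays, MMP3 to -0.36 in SP-infused arrays and MMP12 to 0.021 in mated against SP-infused arrays. Against control, MMP12 went from -0.16 to -0.87 (mated) and from -0.09 to -0.89 (SP-infused), and MMP3 from -0.58 to -0.88 (mated). Of 49 members, 41 were then lower in SP-infused than in control arrays. The causes were not tested.

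When each array was left out, 0 to 2 members were higher in mated than in control arrays. There were 2 without control replicate 5 or 7 or mated replicate 3 (3.44% to 3.64% of all genes). Lower were 1 to 2, with 2 without control replicate 3 or 5 (6.66% and 9.92%). Members lower in SP-infused arrays numbered 0 to 2 (ADAM12 and MMP14 without control replicate 1, 1.8%). In mated against SP-infused arrays 0 to 2 were higher (ADAMTSL3 and MMP11 without SP-infused replicate 1, 2.16%) and 0 to 2 lower (MMP1 and MMP3 without mated replicate 7, 1.23%). Against control, the mated differences ran from -0.86 to -0.43 for MMP3, -0.51 to 0.20 for MMP12 and -0.15 to 0.24 for ADAMTS3, and the SP-infused ones from -0.21 to 0.20, -0.44 to 0.18 and -0.10 to 0.22, with ADAM12 at -0.37 to -0.20. In mated against SP-infused arrays they ran from -0.91 to -0.37, -0.40 to 0.29, -0.23 to 0.14 and -0.23 to -0.09 in the same order. The filter on low means left MMP3 out. The TIMP means stayed above control in mated arrays under every alternative. In SP-infused arrays at least 1 fell below without SP-infused replicate 3, 4 or 5 or the 3 arrays above.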
